A study of Mus musculus with 13 samples.

Results

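The transcripts of 9 genes that mark hematopoietic stem cell (HSC) identity were measured by RNA-Seq in sorted BM cells of 4 genotypes of mice: *Mecom*, *Prdm16*, *Hlf*, *Meis1*, *Mllt3*, *Slamf1*, *Procr*, *Fgd5*, and *Ctnnal1*. They were chosen by name as well-known HSC genes, with earlier results of these data known. All 9 were found among the 54838 genes of the deposited count table, and all 9 passed the filter on low counts that left 17795 genes for testing.

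RNA had been sequenced from 50000 Lin- cKit+ HSPCs per mouse, the fraction of BM cells without mature lineage antigens and with the receptor cKit on their surface. There were 3 control, 3 p53mut, 3 NrasG12D, and 4 NPmut mice, and the question was how mutant p53 and oncogenic NRAS, alone and together, alter the transcriptome of these cells. All mice were on the C57BL/6J background and carried *Mx1-Cre*, a recombinase transgene driven by an interferon-responsive promoter. Control mice carried no other allele, p53mut mice carried 1 *p53* R172H allele beside the wild-type allele, NrasG12D mice 1 *Nras* G12D allele, and NPmut mice both mutant alleles, each behind a LoxP-STOP-LoxP cassette at the endogenous locus. Control, p53mut, and NrasG12D mice were about 6 weeks old when they received 100 μg of pI-pC, a double-stranded RNA that induces interferon, every other day for 3 injections. NPmut mice received no pI-pC, so that recombination is thought to rest on leaky *Mx1-Cre*, and were taken when moribund, with the other groups matched to them in age. Genotype, pI-pC, and stage of disease therefore cannot be told apart in any comparison of NPmut mice with another group. The labels give no age at collection. Each library came from 1 mouse.

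HSCs sit at the top of blood formation, where they both renew themselves and give rise to all blood lineages. Their state is held by transcription factors such as MECOM, PRDM16, HLF, and MEIS1 together with chromatin readers such as MLLT3, and it can be recognized by surface proteins such as SLAMF1 (CD150) and PROCR (EPCR, CD201). In mice, reporters placed in *Fgd5* and *Ctnnal1* (alpha-catulin) mark HSCs, and these genes are switched off in most later progenitors. Lin- cKit+ cells are a mixture of HSCs and later progenitors, and which of them carried the transcripts was not measured. In bulk RNA, fewer cells of a type and less RNA per cell cannot be told apart.

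Between 12576174 and 29124022 reads per mouse were counted on genes, with both extremes in NPmut mice. Levels are given as CPM, read counts scaled to a common depth by library total and TMM factor, for 1 gene across mice, and as RPKM, which also divides by exonic length, between genes. *Kit*, which encodes the sorted receptor, was at 540.2 ± 32.8 CPM in control and 371 ± 68.3 CPM in NPmut HSPCs (mean ± SD), a log2 difference of -0.54 (SE 0.152, edgeR adjusted p = 0.0329) that stayed under 2-fold. The 10 mature lineage antigens checked summed to 2.74 to 3.92 RPKM per control mouse and 2.82 to 4.24 RPKM per NPmut mouse. Reads on 1461 olfactory and vomeronasal receptor genes, which blood cells are not known to use and which stand for background, were at 142 ± 44.7 CPM in control, 98.8 ± 39.4 CPM in p53mut, 41.4 ± 3.33 CPM in NrasG12D, and 34.7 ± 20.3 CPM in NPmut mice. At that density per kilobase, background would account for at most 3.69% of the mean control level and 8.02% of the mean NPmut level of any of the 9 genes, in both cases for *Slamf1*. In single mice the share for *Slamf1* reached 25.0% in NPmut mouse 4 and 22.0045% in NPmut mouse 2, and that for *Fgd5* 14.3% in NPmut mouse 2. The *Nras* gene was read at 49.8 to 65.8 CPM and *Trp53* at 77.5 to 128 CPM, but counts per gene do not show the mutations.

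In control HSPCs the genes spanned a wide range of levels per length. *Meis1* and *Hlf* were highest, at 10.5 ± 2.62 and 8.65 ± 2.74 RPKM (n = 3), followed by *Mllt3* at 3.85 ± 0.948 and *Mecom* at 1.76 ± 0.364 RPKM. *Prdm16* (1.255 ± 0.107 RPKM), *Ctnnal1* (1.19 ± 0.430 RPKM), and *Procr* (1.13 ± 0.409 RPKM) lay close together, and their spreads overlapped. *Fgd5* (0.786 ± 0.235 RPKM) and *Slamf1* (0.711 ± 0.241 RPKM) were the lowest. *Fgd5*, *Slamf1*, and the short *Procr* each rested on at most 110 reads in any control library. In NPmut HSPCs *Meis1*, *Hlf*, and *Mllt3* were still the highest of the 9, at 2.97 ± 1.38, 2.74 ± 1.33, and 1.58 ± 0.468 RPKM (n = 4). *Ctnnal1*, which was 6th in control HSPCs, was 4th in NPmut HSPCs at 0.795 ± 0.120 RPKM, above *Mecom* at 0.445 ± 0.228 RPKM.

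The HSC identity genes were lower in NPmut than in control HSPCs. Of the 9, 8 passed the test (edgeR adjusted p under 0.05 and at least a 2-fold change), all 8 in the downward direction. Of all 17795 tested genes, 3.71% were called lower, 2.27% higher, and 5.98% in either direction. The largest falls were in *Slamf1*, the CD150 receptor, which was 8.02-fold lower, and in *Fgd5*, which was 7.36-fold lower. *Mecom*, *Meis1*, *Procr*, *Hlf*, *Prdm16*, and *Mllt3* were 2.28-fold to 3.72-fold lower. *Ctnnal1* did not pass the test. The median log2 difference of the 9 was -1.60, beside 0.0086 over all tested genes, and in the same 8 genes every NPmut mouse lay below every control mouse, an order found in 11.7% of tested genes. *Prdm16*, *Hlf*, *Meis1*, *Mecom*, and *Slamf1* also stand on the study's own list of genes lower in both of its leukemia transcriptomes, which was drawn up partly on these libraries, so their direction is not independent evidence. When libraries were scaled by their totals alone, without TMM, the median over all tested genes in NPmut against control moved from 0.0086 to -0.11, and the same 8 genes were called.

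**Figure D1:**
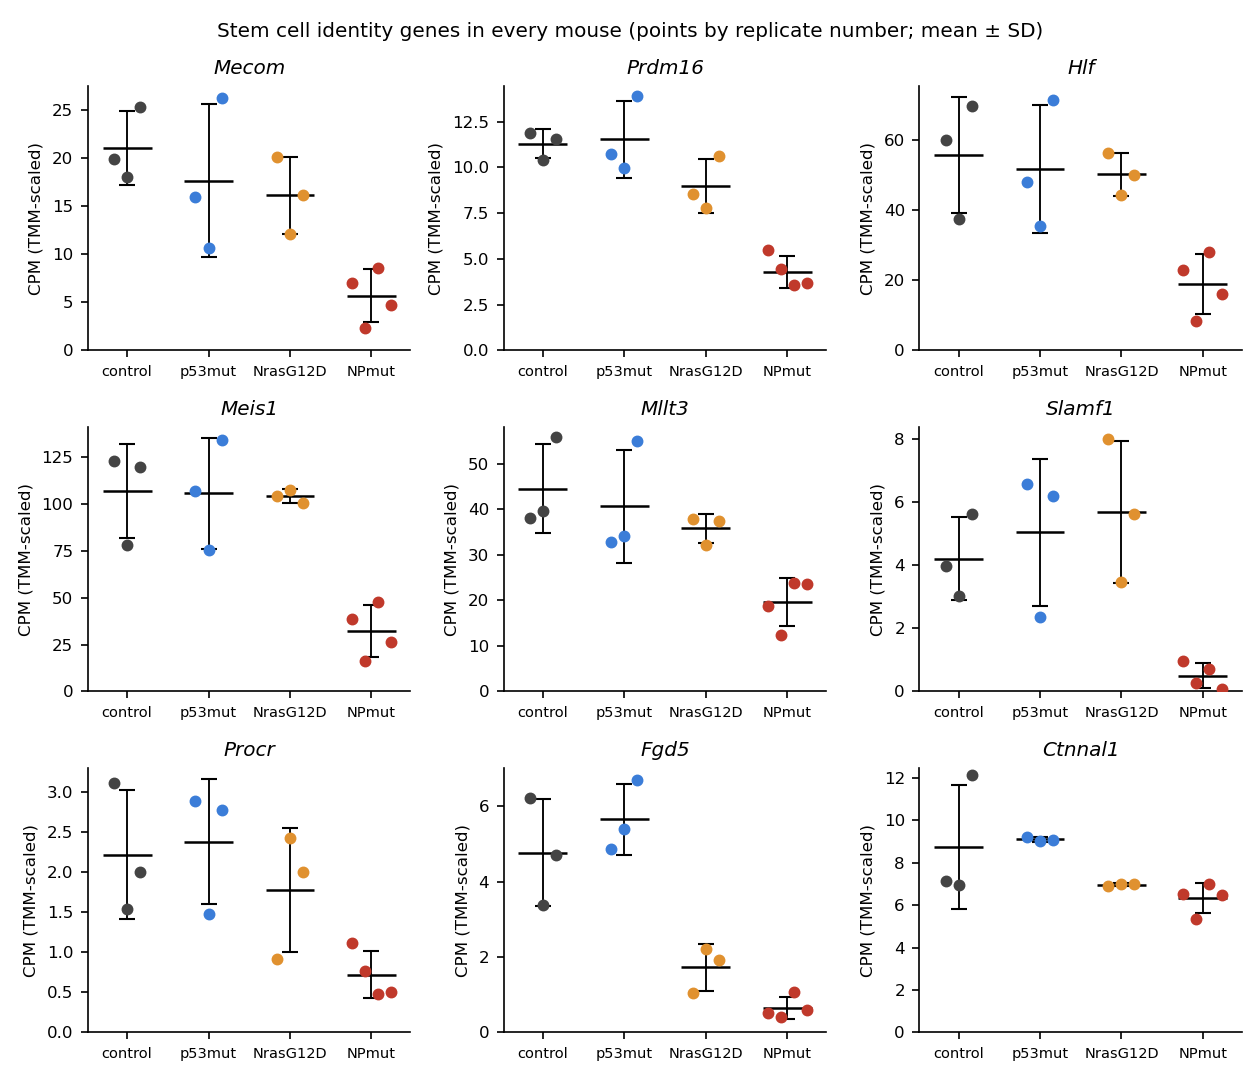
TMM-scaled CPM (linear axis from 0) of each HSC identity gene in every mouse, one panel per gene; points are mice in the order of their replicate numbers, and the black line and bar are the group mean and SD (n = 3 for control, p53mut, and NrasG12D, n = 4 for NPmut). NPmut mice sit below every control mouse in all panels except *Ctnnal1*, and *Fgd5* and *Mllt3* are also lower in each NrasG12D mouse than in each control mouse.

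*Mecom* (ENSMUSG00000027684, chr3:29951296-30548008, - strand; GRCm38) encodes EVI1 and its longer PR domain form, zinc finger transcription factors needed for HSC self-renewal. The 3 control mice were at 19.8, 18.0, and 25.3 CPM and the 4 NPmut mice at 7.03, 2.36, 8.61, and 4.72 CPM. The highest NPmut mouse was thus well below the lowest control mouse, and the log2 fold change was -1.89 (SE 0.373, edgeR adjusted p = 0.00619). The p53mut mice, at 15.96, 10.6, and 26.3 CPM, had the widest spread in CPM and reached both below and above the control mice. In log2 CPM the NPmut mice were spread more widely (SD 0.80 against 0.65 in p53mut mice). The NrasG12D mice were at 20.1, 12.1, and 16.1 CPM, overlapping with the control mice.

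*Prdm16* (ENSMUSG00000039410, chr4:154316125-154636873, - strand) encodes a PR domain factor related to MECOM that maintains HSCs. It was at 11.9, 10.4, and 11.6 CPM in control mice and at 5.46, 4.46, 3.55, and 3.71 CPM in NPmut mice. Both groups were tight and far apart, and the log2 fold change of -1.39 (SE 0.199, edgeR adjusted p = 0.000739) had the smallest standard error of the 9 genes. p53mut mice were at 10.7, 9.98, and 13.9 CPM and NrasG12D mice at 8.55, 7.78, and 10.6 CPM. Both groups overlapped with control mice and stayed above all NPmut mice.

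*Hlf* (ENSMUSG00000003949, chr11:90336536-90390895, - strand) encodes a PAR bZIP factor whose expression is largely limited to stem and early progenitor cells in blood. Control mice were at 59.97, 37.3, and 69.5 CPM and NPmut mice at 22.9, 8.24, 27.9, and 16.1 CPM, with control mouse 2 the nearest to the NPmut mice. The groups did not overlap, and the log2 fold change was -1.57 (SE 0.353, edgeR adjusted p = 0.0145). p53mut mice were at 47.9, 35.5, and 71.4 CPM and NrasG12D mice at 56.3, 44.2, and 50.03 CPM, all above the NPmut mice.

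*Meis1* (ENSMUSG00000020160, chr11:18879817-19018985, - strand) encodes a homeodomain cofactor of HOX proteins that is required in HSCs and is often high in leukemia. It was at 123, 77.9, and 119.5 CPM in control mice and 38.4, 16.2, 47.9, and 26.3 CPM in NPmut mice. No mice of these groups overlapped, and the log2 fold change was -1.73 (SE 0.301, edgeR adjusted p = 0.00357). The NrasG12D mice, at 104, 108, and 101 CPM, were close to each other and lay within the control range, and the p53mut mice were at 107, 75.4, and 134 CPM. *Meis1* shares exonic bases with 2 other genes, one of them on the same strand, but these genes had at most 6.41% of the *Meis1* count in any library. Genes that overlap *Mecom* and *Prdm16* on the other strand had at most 4.84% and 3.54% of the count of their partner.

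*Mllt3* (ENSMUSG00000028496, chr4:87769925-88033364, - strand) encodes AF9, a reader of acylated histones that links DOT1L and the super elongation complex to active genes and sustains HSCs in culture. Control mice were at 38.1, 39.6, and 55.9 CPM and NPmut mice at 18.8, 12.4, 23.9, and 23.5 CPM. The fall was the smallest of the 8, with a log2 fold change of -1.19 (SE 0.230, edgeR adjusted p = 0.00512), although the groups did not overlap. p53mut mice were at 32.8, 34.1, and 55.0 CPM. NrasG12D mice, at 37.8, 32.2, and 37.5 CPM, lay just below the lowest control mouse.

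*Slamf1* (ENSMUSG00000015316, chr1:171767127-171801184, + strand) encodes CD150, the SLAM receptor used to sort HSCs by flow cytometry. Counts were 69, 49, and 110 in the control libraries and 19, 7, 13, and 1 in the NPmut libraries, or 3.97, 3.02, and 5.63 CPM and 0.961, 0.267, 0.6996, and 0.0843 CPM. NPmut mouse 4, with the smallest library, had a single read, and every NPmut mouse was below 1 CPM while every control mouse was above 3 CPM. The log2 fold change was -3.003 (SE 0.534, edgeR adjusted p = 0.00296), the largest of the 9, with a 95% interval of -4.14 to -1.86. p53mut mice were at 6.57, 2.37, and 6.18 CPM and NrasG12D mice at 7.98, 3.47, and 5.60 CPM, overlapping with the control mice.

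*Procr* (ENSMUSG00000027611, chr2:155751117-155755471, + strand) encodes the endothelial protein C receptor, a surface glycoprotein that is high on HSCs. Counts were low, at 54, 25, and 39 in control and 22, 20, 9, and 6 in NPmut libraries, or 3.10, 1.54, and 2.00 CPM and 1.11, 0.763, 0.484, and 0.506 CPM. The groups did not overlap, with NPmut mouse 1 nearest to control mouse 2, and the log2 fold change was -1.60 (SE 0.433, edgeR adjusted p = 0.0284). NrasG12D mouse 1, at 0.918 CPM, fell among the NPmut mice, whereas the other two were at 2.42 and 2.00 CPM. p53mut mice were at 2.88, 1.48, and 2.77 CPM.

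*Fgd5* (ENSMUSG00000034037, chr6:91978878-92076004, + strand) encodes a guanine nucleotide exchange factor for CDC42. It had 108, 55, and 92 counts in control and 10, 11, 20, and 7 counts in NPmut libraries, or 6.21, 3.39, and 4.71 CPM and 0.506, 0.419, 1.08, and 0.590 CPM. The groups were far apart, and the log2 fold change of -2.88 (SE 0.374, edgeR adjusted p = 0.000476) had the smallest adjusted p of the 9. p53mut mice, at 4.88, 5.40, and 6.70 CPM, overlapped with the control mice. NrasG12D mice, at 1.03, 2.22, and 1.93 CPM, lay between, below every control mouse, and NrasG12D mouse 1 fell within the NPmut range.

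*Ctnnal1* (ENSMUSG00000038816, chr4:56810935-56865188, - strand) encodes alpha-catulin, a relative of alpha-catenin. Control mice were at 7.13, 6.96, and 12.1 CPM and NPmut mice at 6.53, 5.34, 6.996, and 6.49 CPM. Control mouse 3 stood above all other mice, whereas control mouse 2 lay below the highest NPmut mouse, so that the groups overlapped, and the log2 fold change was -0.47 (SE 0.205, edgeR adjusted p = 0.165). Its 95% interval, -0.91 to -0.031, does not reach a 2-fold fall. p53mut mice (9.23, 9.02, and 9.07 CPM) and NrasG12D mice (6.89, 6.9997, and 7.02 CPM) each varied little.

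Not every call was equally firm when libraries were left out. *Mecom*, *Prdm16*, *Meis1*, *Slamf1*, and *Fgd5* were called against control in each of the 13 fits without 1 library. Without control mouse 3, whose levels of *Hlf* and *Mllt3* were the highest of the controls, 5 of the 9 genes were called: *Hlf* was then at -1.37 (edgeR adjusted p = 0.0681, range over its 21 alternatives 7.85e-05 to 0.0681), and *Mllt3*, at -0.98 (edgeR adjusted p = 0.0367, range over its 21 alternatives 1.01e-10 to 0.0367), no longer reached 2-fold. That fit called 586 of 18415 genes, against 1065 of 17795 with all mice. *Hlf* also missed the threshold in the fit without a filter on low counts, at -1.53 (edgeR adjusted p = 0.0610). *Procr* lost its call without control mouse 1 (-1.25), control mouse 3 (-1.66), NPmut mouse 3 (-1.44), or NPmut mouse 4 (-1.48), with edgeR adjusted p = 0.143, 0.0724, 0.0605, and 0.0513 (range over its 20 alternatives 0.0101 to 0.143). With background reads as a covariate *Procr* was at -2.62 (edgeR adjusted p = 0.0946), and with only control and NPmut mice in the fit at -1.59 (edgeR adjusted p = 0.0648).

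**Figure D2:**
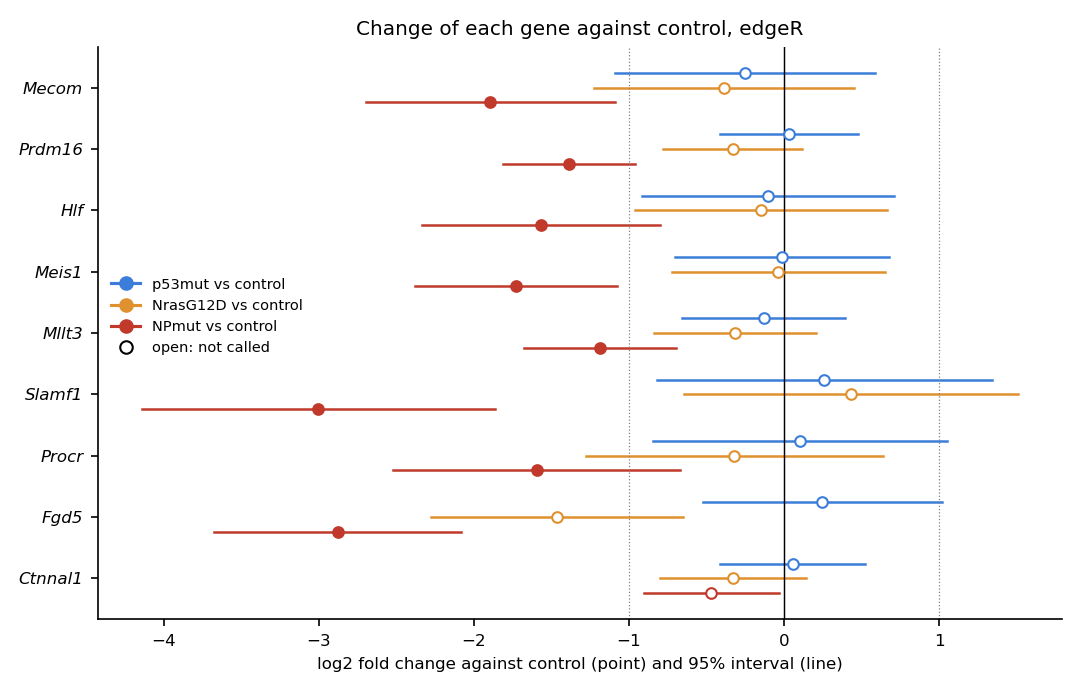
Log2 fold change (point) and 95% interval (line) of each HSC identity gene against the same 3 control mice, for p53mut (blue), NrasG12D (orange), and NPmut (red) mice, from the edgeR fit; filled points are called, open points are not, and dotted lines mark 2-fold. Only NPmut points are filled, from -3.003 for *Slamf1* to -1.19 for *Mllt3*, and the orange *Fgd5* point at -1.47 stands apart from the other single-mutant points.

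Neither mutant allele alone gave a change called by edgeR, while DESeq2 called *Fgd5* in NrasG12D mice. The 3 comparisons with control mice share those mice and are set side by side. In p53mut against control HSPCs, 0 of the 9 genes were called by edgeR or by DESeq2 (0% of tested genes were called by edgeR), and 0 had an unadjusted p under 0.05. Of all 17795 tested genes, 412 had an unadjusted p under 0.05. In none of the 9 were the groups separate, an order found in 5.72% of tested genes for p53mut lower and 5.41% for p53mut higher. The p53mut log2 fold changes ran from -0.25 for *Mecom* to 0.26 for *Slamf1*, and the intervals were wide for the weakly expressed genes, -0.82 to 1.34 for *Slamf1* and -0.84 to 1.05 for *Procr*, and narrower for *Prdm16* (-0.41 to 0.48) and *Ctnnal1* (-0.41 to 0.52). A 2-fold fall was outside the interval for 8 of the 9 genes and inside it for *Mecom* (-1.09 to 0.59).

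In NrasG12D against control HSPCs, 0 of the 9 genes were called by edgeR (0.00562% of tested genes were called), 1 by DESeq2, and 1, *Fgd5*, had an unadjusted p under 0.05. Of all 17795 tested genes, 1620 had an unadjusted p under 0.05. *Fgd5* was at 1.73 ± 0.621 CPM in NrasG12D mice against 4.77 ± 1.41 CPM in control mice, a log2 fold change of -1.47 (SE 0.382, edgeR adjusted p = 0.210). DESeq2 gave an adjusted p of 0.0346 for the same gene, and the adjusted p ranged from 0.0346 to 0.713 over its 20 alternatives. *Fgd5* and *Mllt3* were the 2 genes in which every NrasG12D mouse lay below every control mouse, an order found in 10.8% of tested genes. The other fold changes ran from -0.39 for *Mecom* to 0.43 for *Slamf1*, and *Meis1* was at -0.036 with an interval of -0.73 to 0.65. Against p53mut mice, NrasG12D mice had 0 of 9 genes called by edgeR (0% of tested genes were called) and 1 by DESeq2, *Fgd5*, with 1 gene at an unadjusted p under 0.05 (850 of all 17795 tested genes). There *Fgd5* had a log2 difference of -1.71 (SE 0.383, edgeR adjusted p = 0.367), and DESeq2 gave an adjusted p of 0.0105 (range over 20 alternatives 0.0105 to 0.9997). In *Fgd5* and *Ctnnal1* every NrasG12D mouse lay below every p53mut mouse, an order found in 7.35% of tested genes.

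NPmut HSPCs were also lower than either single mutant. Against NrasG12D mice, which share the *Nras* allele, 6 of the 9 genes were called lower (2.58% of tested genes were called lower, 4.42% in either direction): *Slamf1* at -3.44 (SE 0.534, edgeR adjusted p = 0.00182), *Meis1* at -1.69, *Mecom* at -1.51, *Hlf* at -1.42, *Fgd5* at -1.41, and *Prdm16* at -1.06. *Mllt3* had an adjusted p of 0.0293 by edgeR but, at -0.87, a change under 2-fold, *Procr* was at -1.27 (SE 0.439, edgeR adjusted p = 0.0867), and *Ctnnal1* was at -0.14. The count fell to 2 of 9 without NrasG12D mouse 3 and also without NPmut mouse 4, and to 4 of 9 without NrasG12D mouse 1 or 2. In these fits 568, 774, 444, and 461 of all genes were called, against 786 with all mice. With only NPmut and NrasG12D mice in the fit 4 of 9 were called (440 of 16525 over all genes), as *Fgd5* (-1.42, edgeR adjusted p = 0.133) and *Mecom* (-1.52, edgeR adjusted p = 0.0598) did not pass. *Hlf* did not pass in the fit without a filter on low counts (-1.42, edgeR adjusted p = 0.108). Over all alternatives the edgeR or DESeq2 adjusted p ranged from 0.00830 to 0.150 for *Fgd5*, 1.46e-08 to 0.101 for *Mecom*, and 0.000418 to 0.108 for *Hlf*. *Meis1* and *Slamf1* were called in each of the 13 fits without 1 library.

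Against p53mut mice, which share the *p53* allele, 8 of the 9 genes were called lower (3.1% of tested genes were called lower, 5.21% in either direction), again all but *Ctnnal1*, which was at -0.52 (SE 0.206, edgeR adjusted p = 0.129). *Slamf1* was at -3.26 and *Fgd5* at -3.13, and the others were between -1.71 (*Meis1*) and -1.06 (*Mllt3*). Without p53mut mouse 3, which had the highest *Mecom*, *Hlf*, *Mllt3*, and *Meis1* of its group, 4 of 9 were called, as *Mecom* (-1.22), *Hlf* (-1.14), *Procr* (-1.56), and *Mllt3* (-0.76) did not pass, and 4 of 9 were called when only these 2 groups entered the fit. Of all genes, 431 and 478 were called in these 2 fits, against 927 in the main fit. In all 9 genes, *Ctnnal1* included, every NPmut mouse was below every p53mut mouse, an order found in 10.7% of tested genes.

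A test of the interaction asks whether the NPmut difference departs from the sum of both single-mutant differences on the log2 scale. All 9 terms were negative, and 8 had an unadjusted p under 0.05, as did 2853 of all 17795 tested genes. Of the 9, 1 was called (0.888% of tested genes were called lower, 1.28% in either direction): *Slamf1*, at -3.70 (SE 0.740, edgeR adjusted p = 0.0265). *Slamf1* was the gene whose NrasG12D and p53mut estimates were both above control, at 0.43 and 0.26, neither of which passed the test. *Prdm16* at -1.09 (SE 0.290, edgeR adjusted p = 0.0699) and *Meis1* at -1.68 (SE 0.439, edgeR adjusted p = 0.0746) came next and did not pass, and *Ctnnal1* was at -0.20. The *Slamf1* call was lost without control mouse 1 or 2, p53mut mouse 1 or 3, or NrasG12D mouse 1 or 3, with estimates of -4.19 to -3.38 over the 13 fits, *Meis1* was called beside it without p53mut mouse 2 (-1.88) and *Meis1* (-1.94) and *Fgd5* (-2.03) without NPmut mouse 3, and the *Slamf1* call was lost with background reads as a covariate (-3.27, edgeR adjusted p = 0.0822, range over 19 alternatives 1.99e-09 to 0.0871).

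The order of the 4 groups was the same at its lower end for all 9 genes, with NPmut lowest. NPmut mice were separate from the next group in 6 genes (*Mecom*, *Hlf*, *Mllt3*, *Prdm16*, *Slamf1*, and *Meis1*), whereas in *Procr*, *Fgd5*, and *Ctnnal1* they overlapped with NrasG12D mice. The order of every NPmut mouse below every NrasG12D mouse held in the same 6 genes and in 10.9% of tested genes. Among the other 3 groups, neighbors in the order overlapped in every gene but *Fgd5*, in which control and NrasG12D mice were separate. Control means were highest for *Mecom*, *Hlf*, *Mllt3*, and *Meis1*, p53mut means for *Procr*, *Fgd5*, *Prdm16*, and *Ctnnal1*, and the NrasG12D mean for *Slamf1*.

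In each of the 4 groups, mouse 2 was the lowest in most of these genes, and whether the shared number has a part in this was not tested. Control mouse 2 was the lowest control in 8 of the 9 genes, p53mut mouse 2 the lowest of its group in 7, and NPmut mouse 2 the lowest of its group in 6. NrasG12D mouse 2 was the lowest of its group in 5, with 3 of the lowest places in mouse 1 and 1 in mouse 3. NPmut mouse 3 was the highest of its group in 6. Over the 9 genes, the median difference of a mouse from the control mean, in log2 CPM, was -1.23, -2.68, -1.26, and -1.85 in NPmut mice 1 to 4, against -0.47 to 0.36 in the 3 p53mut mice and -0.28 to -0.10 in the 3 NrasG12D mice. All 9 genes were below the control mean in each of the 4 NPmut mice. The genes did not share 1 ranking of the NPmut mice, however: *Slamf1* was lowest in mouse 4, *Prdm16* and *Procr* in mouse 3, and the other 6 in mouse 2. Mouse 2 had the largest library of all and mouse 4 the smallest, and the part of depth in these differences was not tested.

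**Figure D3:**
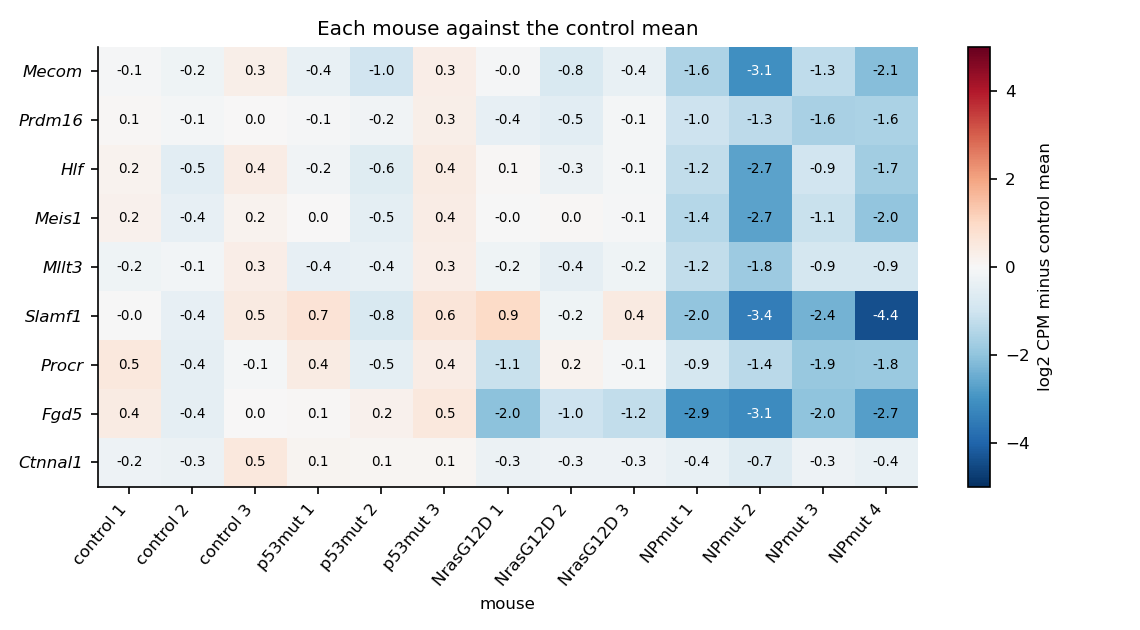
Log2 CPM of each HSC identity gene (rows) in each mouse (columns) minus the mean of the 3 control mice; blue is lower and red is higher, and the number in each cell is the difference. The 4 NPmut columns are blue throughout, deepest in NPmut mouse 2 with a median of -2.68, while in the 3 NrasG12D mice *Fgd5* is the deepest, and *Mecom*, *Mllt3*, *Prdm16*, and *Ctnnal1* are also below the control mean in each.

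The sequences just upstream of the genes were set beside these results because GATA2, a zinc finger factor that binds GATA words and is itself an HSC regulator, was at 149 ± 24.4 CPM in control and 47.7 ± 28.8 CPM in NPmut HSPCs (log2 fold change -1.65, SE 0.368, edgeR adjusted p = 0.0148). RefSeq (GRCm38.p6) gave a 250-base window upstream of a start for all 9 genes, 11 windows in all with 2 each for *Mecom* and *Mllt3*. The words AGATAA and TGATAA and their variants ending in G, AGATAG and TGATAG, were searched on both strands. One was found in 4 of the 11 windows (both of *Mecom*, 1 of *Mllt3*, and that of *Slamf1*) and in 26.5% of the 32851 windows of all genes. The windows of the genes with the 2 largest falls differ widely in composition, with 47.2% G and C and 3 CG dinucleotides at *Slamf1* against 71.6% and 31 at *Fgd5*, around medians of 52.4% and 6 over all windows. They are shown with 1 *Mecom* window, which lies inside the span of the gene in GENCODE, and with that of *Ctnnal1*, the gene that was not called. Each runs 5′ to 3′ on the gene's strand, and capitals mark GATA words:
*Slamf1* (chr1:171766882-171767131, + strand): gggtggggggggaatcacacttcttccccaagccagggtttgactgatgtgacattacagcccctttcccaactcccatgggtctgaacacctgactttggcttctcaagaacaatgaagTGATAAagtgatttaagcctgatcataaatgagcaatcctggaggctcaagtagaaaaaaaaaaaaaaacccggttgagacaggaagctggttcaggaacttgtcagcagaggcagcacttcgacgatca
*Fgd5* (chr6:91978715-91978964, + strand): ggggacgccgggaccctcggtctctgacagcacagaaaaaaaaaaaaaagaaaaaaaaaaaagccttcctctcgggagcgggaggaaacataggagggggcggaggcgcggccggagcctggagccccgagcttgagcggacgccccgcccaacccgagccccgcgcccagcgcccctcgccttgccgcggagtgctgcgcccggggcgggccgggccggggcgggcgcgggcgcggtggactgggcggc
*Mecom* (chr3:30509760-30510009, - strand): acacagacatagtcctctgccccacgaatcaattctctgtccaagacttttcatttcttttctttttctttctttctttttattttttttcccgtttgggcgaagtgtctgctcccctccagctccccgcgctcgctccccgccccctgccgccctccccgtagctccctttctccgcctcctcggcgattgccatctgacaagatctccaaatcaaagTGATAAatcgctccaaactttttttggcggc
*Ctnnal1* (chr4:56865212-56865461, - strand): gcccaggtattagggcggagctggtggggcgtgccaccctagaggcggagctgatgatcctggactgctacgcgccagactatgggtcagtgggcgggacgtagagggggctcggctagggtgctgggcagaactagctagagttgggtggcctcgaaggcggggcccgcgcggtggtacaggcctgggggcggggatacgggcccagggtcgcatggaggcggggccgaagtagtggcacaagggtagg
The words CGGAAG and AGGAAG, which ETS factors bind, were in 5 of the 11 windows and in 39.2% of all windows. TGTGGT and TGCGGT, bound by RUNX factors, were in 1 of the 11 windows (*Meis1*) and in 18.6% of all windows. TGACAG, bound by MEIS proteins, was in 3 of the 11 windows and in 15.9% of all windows. Words that end in AG can share these letters with a GATA word that begins with them, and a match describes letters in a window and not a bound site.

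Close relatives and partners of the 9 genes were examined by list. Of 8 other PR domain genes tested, 0 were called in NPmut against control HSPCs by edgeR (3 at an unadjusted p under 0.05, 0 called by DESeq2), with a median log2 difference of -0.22. Of 3 other genes listed around the PAR bZIP family, 1 rose, *Nfil3*, at 1.84 (SE 0.257, edgeR adjusted p = 0.000660). It encodes a bZIP repressor that binds the same DNA sites as HLF but lacks the PAR domain. The 2 genes of this list that were below control were not called. Of 15 genes for elongation and DOT1L partners of MLLT3, 1 fell, the elongation factor gene *Ell2*, at -1.61 (SE 0.229, edgeR adjusted p = 0.000730).

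Of 7 SLAM family genes tested, 1 rose, *Slamf7*, at 2.15 (SE 0.467, edgeR adjusted p = 0.00908), and the median log2 difference was 0.57. Of 5 genes of the protein C pathway around PROCR, 2 fell and 1 rose: *F2rl2*, the PAR3 gene, at -3.45 (SE 0.548, edgeR adjusted p = 0.00144), *F2r*, which encodes the thrombin receptor PAR1 through which PROCR-bound protein C signals, at -2.04 (SE 0.516, edgeR adjusted p = 0.0277), and *Pros1*, which encodes the protein C cofactor protein S, at 1.34 (SE 0.358, edgeR adjusted p = 0.0264). Of 6 genes of the FGD family and CDC42, 1 rose, *Fgd2*, at 1.56 (SE 0.138, edgeR adjusted p = 4.61e-05). Of 5 catenin family genes tested, 0 were called by edgeR (1 at an unadjusted p under 0.05, 0 called by DESeq2).

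Other genes used as marks of HSCs were lower in part. Of 27 other HSC transcription factor genes tested, 7 fell and 0 rose, among them *Mycn* (-1.80, SE 0.421, edgeR adjusted p = 0.0165) and *Zfpm1*, which encodes the GATA cofactor FOG1 (-1.67, SE 0.393, edgeR adjusted p = 0.0187). Their median log2 difference was -0.43, and most of them did not pass the test. Of 27 surface and secreted HSC genes tested, 13 fell and 1 rose, with a median of -0.92. *Tek*, the angiopoietin receptor gene, fell from 9.12 ± 1.46 to 0.815 ± 0.669 CPM (-3.41, SE 0.499, edgeR adjusted p = 0.00103), the related *Tie1* was at -3.33 (SE 0.275, edgeR adjusted p = 4.01e-05) and *Mmrn1* at -3.24 (SE 0.452, edgeR adjusted p = 0.000985), and the chemokine receptor gene *Cxcr4*, which retains HSCs in the BM, rose by 1.14 on the log2 scale. *Ly6a*, which encodes the sorting antigen Sca1, and *Cd34* did not pass the test: *Ly6a* was at 0.25 (SE 0.402, edgeR adjusted p = 0.746) and *Cd34* at 0.18 (SE 0.172, edgeR adjusted p = 0.569). Of 19 HSC genes for enzymes and other intracellular proteins, 7 fell and 0 rose, led by *Trpc6* (-4.30, SE 0.574, edgeR adjusted p = 0.000661), *Trim47* (-2.34), and *Aldh1a1*, a retinaldehyde dehydrogenase gene (-2.04). Of 12 genes of multipotent progenitors, the stage after the HSC, 0 fell and 4 rose: *Ly86* (2.16), *Cd52* (1.87), *Dntt* (1.55), and *Flt3* (1.15, SE 0.316, edgeR adjusted p = 0.0361), the receptor gene whose protein is absent from HSCs. All 12 were also above control in NrasG12D mice (median 0.46, 0 called by edgeR, 2 by DESeq2) and in p53mut mice (median 0.20, 0 called by edgeR or by DESeq2). In NPmut against NrasG12D mice the median was 0.089, and 2 were called higher, *Cd52* and *Ly86*. *Flt3* was at 158 CPM in NrasG12D and 159 CPM in NPmut mice. *Ly86*, *Flt3*, and *Dntt* are also on the monocyte and macrophage, dendritic cell, and lymphoid lists, in that order.

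**Figure D4:**
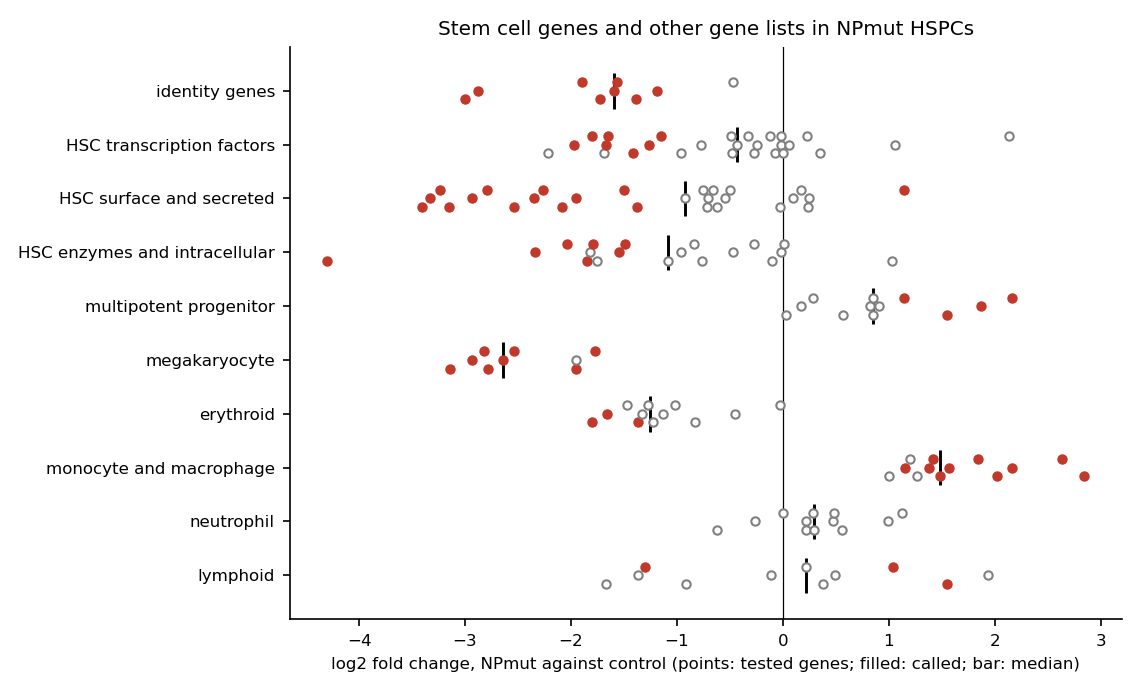
Log2 fold change of NPmut against control HSPCs for the genes of 10 lists; each point is a tested gene, filled if called, and the vertical bar is the list's median. The HSC identity genes lie at a median of -1.60, the megakaryocyte list at -2.64, and the monocyte and macrophage list at 1.48.

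Markers of other cells moved with the HSC identity genes, and their part in the results above was not tested. Of 9 megakaryocyte genes tested, 8 fell, with a median log2 difference of -2.64, and the 12 listed genes summed to 57.7 to 87.9 RPKM per control mouse and 5.69 to 24.0 RPKM per NPmut mouse. *Gp1ba* (-3.14), *Vwf* (-2.93), and *Gp5* (-2.82), which encode platelet adhesion proteins, fell furthest, and *Vwf* is on the HSC surface list as well. Of 12 erythroid genes, 3 fell (*Gata1* -1.80, *Klf1* -1.66, and *Car2* -1.36), and the list summed to 505 to 742 RPKM in control and 101 to 409 RPKM in NPmut mice. Of 8 mast cell and basophil genes tested, 2 fell, *Fcer1a* (-3.58) and *Il1rl1* (-1.55), and the list summed to 38.1 to 57.2 RPKM in control and 20.9 to 51.9 RPKM in NPmut mice. Of 8 endothelial genes tested, 5 fell, among them *Tie1*, *Tek*, and *Kdr* (-2.92). The other 8 of the 16 listed genes had too few reads to be tested, among them the defining endothelial genes *Cdh5*, *Sox17*, and *Cldn5*, which had at most 14, 3, and 0 counts in any control library and at most 6, 1, and 4 counts in any NPmut library, and the list summed to 26.4 to 31.9 RPKM in control and 23.0 to 30.9 RPKM in NPmut mice. Of 3 stromal genes tested, 1 fell, *Col1a2* (-2.95), and the 10 listed genes summed to 5.05 to 7.21 RPKM in control and 3.68 to 11.9 RPKM in NPmut mice.

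Genes with the most similar course over the 13 mice were sought among the 13229 genes that averaged 1 or more in log2 CPM, by the root mean square difference of log2 CPM centered on each gene's mean. The mice share libraries and depth, so the values describe likeness only. The nearest gene to *Meis1* was *Angpt1* (0.183), followed by *Arhgap6* and *Pear1*, and *Arhgap6* and *Pear1* were also among the 3 nearest to *Hlf*, with *Gm19590* first (0.178). *Mecom* was nearest to *Ttc39b* (0.220), *Adgrl2*, and *Vamp5*, and *Mllt3* to *Acss2* (0.156), *Fam110b*, and *Fam234b*. *Prdm16* was nearest to *Fnbp1l* (0.197), *Fkbp9*, and *Plxnc1*, and *Slamf1* to *Rab27b* (0.373), the platelet gene *Pf4*, and *Ptpn14*. *Procr* was nearest to *AI854703* (0.357), *Fkbp9*, and *Hsph1*, *Fgd5* to *Bgn* (0.459), *Gas2l1*, and *Zfp532*, and *Ctnnal1* to *Sgsm3* (0.135), *B3glct*, and *Gm16638*.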

How the data were processed

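The authors deposited raw read counts per gene for 13 libraries, prepared with the SMARTer Stranded Pico kit. Per the submitters' processing notes, the build was GRCm38.p6, and STAR 2.6.1d, R 3.6.1, and DESeq2 1.26.0 were used. The counting program and its strand setting are not given in the sources used here. Gene names and exonic lengths came from GENCODE M21, which holds 54809 of the 54838 identifiers, and upstream windows came from RefSeq. All 13 libraries entered 1 quasi-likelihood fit (edgeR 4.0.16 in R 4.3.3, robust, TMM, filterByExpr, no covariate), with Benjamini-Hochberg adjustment over 17795 genes. Genes were called at an adjusted p under 0.05 with a change of at least 2-fold.

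The genes, the lists, and the tests were chosen with earlier results of these data known. Named beside the 9 genes were at most 3 called genes in each direction of each of 23 lists, ranked by fold change, with *Kit*, *Ly6a*, *Cd34*, *Flt3*, and *Gata2*, and the 3 nearest genes to each of the 9. *Cdh5*, *Sox17*, *Cldn5*, and *Trp53* were added after their values were seen, and some genes that the rule names are not reported here. The fit was repeated with library totals or RLE factors, no filter or at least 10 counts in every library, DESeq2 1.42.0, only the compared groups, a replicate block, background reads as a covariate, and with each library left out. In log2 CPM by mouse, a prior count of 2 was used. Control and p53mut mice with the same number deviated from their group means together in all 3 pairs (r = 0.166, 0.163, and 0.152), so a fit to these groups alone with a replicate block was added after seeing the data. Nothing says that the number marks a litter or batch. Group differences were judged by the spread between mice.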

Additional observations from a re-analysis of the deposited data

Results flagged for a closer look

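The *Slamf1* interaction term of -3.70 (SE 0.740, edgeR adjusted p = 0.0265) marks a difference between groups: the log2 difference between mice with and without the *Nras* allele was 0.43 without mutant p53 (NrasG12D against control) and -3.26 with it (NPmut against p53mut), and the test compares the latter with the former. All 4 NPmut mice, at 0.961, 0.267, 0.6996, and 0.0843 CPM, were below all 9 other mice, whose lowest was p53mut mouse 2 at 2.37 CPM. The NPmut values rest on 19, 7, 13, and 1 reads, and the NPmut mice alone received no pI-pC. No NPmut mouse stood apart from its group by Dixon's criterion in any of the 9 genes, and groups of 3 were not examined in this way.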

How the results depend on the processing

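All directions of the 9 genes were kept in NPmut against control, NrasG12D, and p53mut mice under each of the 8 alternatives and each library left out, wherever a gene was tested, and in the interaction under the same settings except only the compared groups, which does not apply to it. For NPmut against control mice, 5 genes were called with at least 10 counts in every library, a filter that tested 6 of the 9, and 5 to 8 with 1 library left out. Over all genes, 638 of 13490 were called with that filter and 586 to 1252 with 1 library left out. With background reads as a covariate, 364 of 17795 genes were called, against 1065 in the main fit. Of the 8 genes called in the main fit, *Procr* alone lost its call with the covariate. For NPmut against NrasG12D mice, 2 to 6 were called with 1 library left out, and 444 to 992 over all genes. For NPmut against p53mut mice, 5 were called with at least 10 counts in every library, 4 with only the compared groups, and 4 to 8 with 1 library left out. The same settings called 597 of 13490, 478 of 16594, and 431 to 1152 of all genes. For NrasG12D against control mice, DESeq2 called 1 (77 over all genes). For NrasG12D against p53mut mice DESeq2 called 1 (22 over all genes) and the fit without a filter 1 (48 over all genes). The interaction was called in 2 genes without a filter, 0 with at least 10 counts, 3 with the replicate block, 0 with background reads as a covariate, 4 by DESeq2, and 0 to 3 with 1 library left out. Of all genes, these settings called 651 of 44944, 181 of 13490, 351 of 17795, 61 of 17795, 603 of 54838, and 65 to 531. Beyond the fewer genes tested or mice used, the cause was not tested.

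With the replicate block in the fit to all mice, 7 genes were called for NPmut against control mice (*Procr* was lost, at -1.47), 6 against NrasG12D mice, where *Mllt3* was gained and *Prdm16* lost, and 0 in p53mut against control mice, also in the fit to control and p53mut mice alone. Of all genes, these fits called 1283, 885, 0, and 16. NPmut mouse 4 alone carried its number, so the block fitted it exactly and it added nothing to the NPmut estimates. Of 18 same-numbered pairs, 9 had a correlation of deviations over 0.1 (range -0.11 to 0.29), and control and p53mut mice alone exceeded it in all 3 pairs. The largest values lay elsewhere, at 0.294 for NrasG12D mouse 2 with NPmut mouse 2 and 0.257 for control mouse 2 with NPmut mouse 2. Whether mice with the same number share more than the number was not tested.

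Estimates that changed sign were uncalled in each comparison. In NrasG12D against control, *Slamf1* was at -0.61 with the covariate and *Meis1* at 0.00016 without a filter and 0.029 with the block, and with 1 library left out *Hlf* ran from -0.34 to 0.050, *Procr* from -0.60 to 0.028, and *Meis1* from -0.19 to 0.11. In p53mut against control, the covariate gave -0.34 for *Procr*, -0.16 for *Prdm16*, -0.24 for *Slamf1*, and -0.097 for *Ctnnal1*, and with 1 library left out the ranges were -0.65 to 0.0099 (*Mecom*), -0.41 to 0.11 (*Hlf*), -0.086 to 0.44 (*Procr*), -0.41 to 0.070 (*Mllt3*), -0.12 to 0.13 (*Prdm16*), -0.22 to 0.18 (*Meis1*), and -0.071 to 0.37 (*Ctnnal1*). In NrasG12D against p53mut, *Hlf* was at 0.031 and *Meis1* at 0.054 with the block, *Slamf1* at -0.37 with the covariate, and *Meis1* at 0.013 without a filter, and the ranges with 1 library left out were -0.38 to 0.30 (*Mecom*), -0.25 to 0.29 (*Hlf*), -0.30 to 0.12 (*Mllt3*), -0.16 to 0.43 (*Slamf1*), and -0.21 to 0.21 (*Meis1*).

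Depth limits *Slamf1*, *Procr*, and *Fgd5*, which had 1 to 22 reads in NPmut libraries.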

Other observations

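Most monocyte and dendritic cell genes were higher in NPmut than in control HSPCs. Of 13 monocyte and macrophage genes tested, 0 fell and 10 rose, with a median log2 difference of 1.48, led by *Klf4*, a zinc finger factor of monocyte differentiation (2.84, SE 0.592, edgeR adjusted p = 0.0106), the protease gene *Ctss* (2.64), and *Ly86* (2.16). The list summed to 181 to 217 RPKM per control mouse and 412 to 746 RPKM per NPmut mouse, without overlap. Of 12 dendritic cell genes tested, 9 rose and 1, *Zbtb46* (-1.10), fell. *Siglech* (3.48), *Clec9a* (3.03), and the MHC class II gene *H2-Aa* (2.90) rose most, and the list summed to 39.2 to 47.4 RPKM in control, 73.2 to 98.0 RPKM in NrasG12D, and 59.7 to 129.6 RPKM in NPmut mice.

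Of 12 neutrophil genes tested, 0 were called by edgeR (1 at an unadjusted p under 0.05, 0 called by DESeq2), and the list summed to 5059 to 5988 RPKM in control and 5609 to 8872 RPKM in NPmut mice, with *Mpo*, a primary granule gene, at 10775 ± 1238 and 13109 ± 3171 CPM (chosen for its level). Of 11 lymphoid genes tested, *Dntt* (1.55) and *Tcf7* (1.04) rose and *Gata3* (-1.30) fell, and the list summed to 14.9 to 25.4 RPKM in control, 34.5 to 73.4 RPKM in NrasG12D, and 23.6 to 65.3 RPKM in NPmut mice. Of the 5 mature lineage antigens tested, *Itgax* (2.09) rose. *Mpo* is outside the rule for named genes.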
